A study of Homo sapiens with 5 samples.

Results

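The genes described here are 43 genes that fold, move and degrade proteins at the endoplasmic reticulum (ER), together with the sensors and transcription factors of the unfolded protein response. They were taken by symbol from a table of read counts for 16677 genes, and all 43 were present in it. All 43 also passed the filter on low counts, which left 16310 genes for testing. The counts come from messenger RNA of HEK293 cells, a widely used line of human embryonic kidney origin, and the labels name no treatment or stress agent for any library. There were 2 libraries with the genotype WT and 3 libraries with the genotype rs11607019, in which T is changed to C at a variant that the series places in SIRT3, a mitochondrial deacetylase gene. The 3 libraries are called the variant libraries below. How the libraries relate to clones or cultures is not given in the sources used here, so the tests measure the spread between these libraries, which may be technical.

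Proteins that enter the secretory pathway are threaded into the ER through the SEC61 channel, folded by chaperones and disulfide isomerases, and sent back to the cytosol for degradation if they fail to fold. Unfolded protein in the ER lumen releases the chaperone BiP from the membrane sensors IRE1, PERK and ATF6. These then drive the factors XBP1, ATF4 and cleaved ATF6, which raise transcription of chaperone and degradation genes. ATF6 and XBP1 are known to act through the ER stress response element (ERSE), a CCAAT box that binds NF-Y followed at a fixed distance by CCACG, and through a shorter variant, ERSE-II.

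Library totals ran from 17122569 to 17596084 counts, and the 43 genes held between 58 and 17142 counts per library. Of 8 genes listed as HEK293 markers, 5 were in the table (VIM, KRT8, KRT18, PAX2 and LIN28B), with a summed level of 700.1 to 1132 CPM, the counts scaled to library size with the trimmed mean of M-values (TMM). NEFL, NEFM and CDH2 of that list were not analysed here. Of 14 markers of fibroblasts, blood cells and hepatocytes, 1 was in the table, COL1A1, at 28.4 to 46.3 CPM. SIRT3 had 28.9 and 29.3 CPM in WT and 26.5, 15.8 and 30.2 CPM in the variant libraries, a log2 fold change of −0.27 (SE 0.26, adjusted p 0.815 in edgeR). Variant 2 alone was low at SIRT3.

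ERSE motifs were looked for in the promoters because they link many of these genes to 1 shared response. RefSeq promoter windows of GRCh38.p14, from 250 bases before to 50 bases after the annotated start, matched 41 of the 43 genes (PDIA3 and DERL1 were not matched). The ERSE letters, CCAAT then any 9 bases then CCACG, were searched on both strands and found in 7 of the 41 windows (17.1%) and in 0.0806% of all 27305 windows. The ERSE-II letters, ATTGG then any 1 base then CCACG, were found in 3 windows (7.32%) and in 0.0549% of all windows. Either motif was present in 10 of 41 windows (24.4%), in 0.136% of all windows and in 0 of the 96 windows of other ER genes described further below. Among windows of genes in the count table the share was 0.229%. The 43 genes were chosen as genes of this response, so an excess over other windows was built in and tests nothing. These matches describe letters in a window, not factor binding, which was not measured. The windows are printed on the strand of the gene, with the match in capitals, for all 10 genes, since they show the element that these genes have in common.
HSPA5 (chr9:125241375-125241425, minus strand): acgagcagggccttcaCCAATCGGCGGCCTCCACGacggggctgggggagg
HSP90B1 (chr12:103930200-103930250, plus strand): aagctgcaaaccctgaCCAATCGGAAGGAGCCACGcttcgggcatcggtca
CALR (chr19:12938368-12938418, plus strand): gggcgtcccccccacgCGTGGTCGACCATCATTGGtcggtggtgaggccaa
CANX (chr5:179698762-179698812, plus strand): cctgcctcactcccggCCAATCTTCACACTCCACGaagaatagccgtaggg
CRELD2 (chr22:49918538-49918588, plus strand): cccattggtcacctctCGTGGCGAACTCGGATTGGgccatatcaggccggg
XBP1 (chr22:28800587-28800637, minus strand): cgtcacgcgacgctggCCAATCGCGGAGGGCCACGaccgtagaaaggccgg
ERO1B (chr1:236282167-236282208, minus strand): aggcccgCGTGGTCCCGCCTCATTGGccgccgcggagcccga
HERPUD1, ERSE-II (chr16:56932009-56932051, plus strand): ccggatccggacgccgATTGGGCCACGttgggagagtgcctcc
HYOU1, ERSE-II (chr11:119057258-119057300, minus strand): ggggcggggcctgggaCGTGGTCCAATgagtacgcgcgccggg
SDF2L1, ERSE-II (chr22:21642098-21642140, plus strand): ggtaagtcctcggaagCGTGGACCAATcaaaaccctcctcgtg

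In CALR, CRELD2, ERO1B, HYOU1 and SDF2L1 the match is on the other strand, so its reverse complement is shown. HSP90B1 held a second ERSE and HYOU1 a second ERSE-II, which overlaps a match to TGACGTGG, an XBP1 motif (UPRE). TGACGTGG was present in 3 of 41 windows (HYOU1, DNAJC10 and TXNDC11) and in 0.795% of all windows. The amino acid response motif TTGCATCA, tied to ATF4, was present in 1 of 41 (HERPUD1) and in 0.923% of all windows.

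The variant libraries were compared with the WT libraries to ask whether ER folding and stress genes differ with the T-to-C change. No common direction was seen. Of the 43 genes, 18 were higher and 25 lower in the variant libraries, and the median log2 fold change was −0.01, beside 0.0030 over all tested genes. edgeR's quasi-likelihood test called 0 of 43 genes at an adjusted p of 0.05, against 0% of all tested genes. limma-voom also gave 0, and DESeq2's Wald test gave 1, ERO1B. Adjusted p-values in edgeR ran from 0.616 to 0.997. An unadjusted p under 0.05 was found for 6 genes (14%), against 7.62% of all tested genes. TXNDC5 was the 1 higher gene (4.11% of all genes were called in that direction), and ERO1B, SEC61G, SSR3, DNAJB9 and HERPUD1 were the 5 lower ones (3.51% of all genes).

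**Figure D1:**
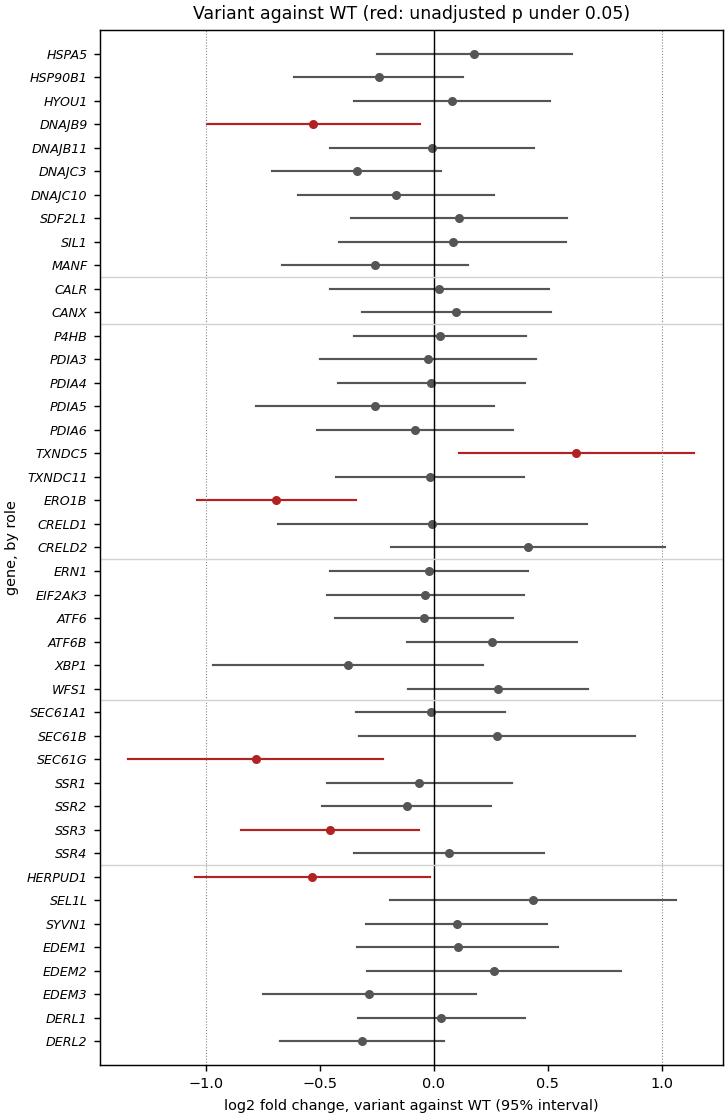
Log2 fold change of each of the 43 genes, variant against WT, ordered by role, with the 95% interval from edgeR (n = 2 WT and 3 variant libraries) and dotted lines at a 2-fold change in each direction. Red marks the 6 genes with an unadjusted p under 0.05, of which TXNDC5 alone lies to the right of 0.

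The intervals show how large a difference these libraries leave room for. For 37 of the 43 genes the 95% interval lay within a 2-fold change in either direction, where 69.9% of all tested genes had such an interval. These shares were not matched for expression level. The median SE was 0.192 for the 43 genes and 0.230 for all tested genes. The 6 genes whose interval reached past a 2-fold change were TXNDC5, ERO1B, CRELD2, SEC61G, HERPUD1 and SEL1L. The groups did not overlap at 9 genes, against 24.8% of all tested genes. WFS1 and TXNDC5 were higher in each variant library than in both WT libraries (2 of 43, against 11.8%). DNAJB9, DNAJC3, MANF, ERO1B, SEC61G, SSR3 and DERL2 were lower in each (7 of 43, against 13%).

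ERO1B showed the tightest separation of the groups. It encodes an ER oxidase that passes oxidising equivalents to protein disulfide isomerase, and lies on chromosome 1, 236215555 to 236281985, reverse strand (GENCODE release 29, GRCh38). It stood at 67.4 and 66.4 CPM in WT and at 43.9, 40.9 and 39.6 CPM in the variant libraries. Both WT libraries were above all 3 variant libraries, and the spread within each group was small. The group means were 66.9 ± 0.704 CPM (SD, n = 2) and 41.5 ± 2.22 CPM (SD, n = 3), 1.61-fold lower in the variant. The log2 fold change was −0.69 (SE 0.15, 95% interval −1.04 to −0.34, adjusted p 0.616 in edgeR and 0.0355 in DESeq2). Its paralogue ERO1A, the more widely expressed oxidase, overlapped between the groups, with 75.2 and 62.6 CPM in WT and 87.3, 84.04 and 50.55 CPM in the variant libraries (log2 fold change 0.10, SE 0.24).

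**Figure D2:**
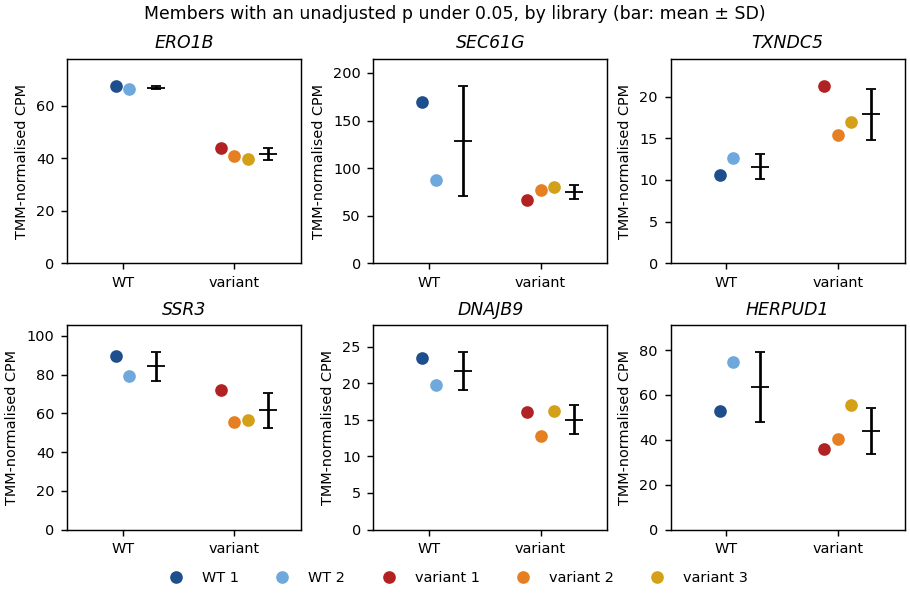
TMM-normalised CPM of the 6 genes with an unadjusted p under 0.05, 1 point per library, with the group mean ± SD (n = 2 WT, n = 3 variant) as bars. ERO1B lay at 66.4 to 67.4 CPM in WT and 39.6 to 43.9 CPM in the variant, whereas the SEC61G difference is set largely by WT 1 at 169.6 CPM and the HERPUD1 groups overlap.

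The abundant isomerases of disulfide bond formation overlapped between the groups. The main isomerase P4HB stood at 603 and 847 CPM in WT and 767, 660.5 and 789 CPM in the variant libraries. All 3 variant levels lay between those of the WT libraries, and the log2 fold change was 0.03 (95% interval −0.35 to 0.41). PDIA3, the isomerase that works with the lectin chaperones, had 198 and 288.5 CPM in WT and 244, 189 and 283 CPM in the variant libraries (log2 fold change −0.03, 95% interval −0.50 to 0.45). PDIA4 had 283 and 354 CPM in WT and 367, 254 and 327 CPM in the variant libraries (log2 fold change −0.01, 95% interval −0.42 to 0.40). In each of these 3 isomerases WT 1 and WT 2 differed by more than the group means did, though single libraries vary more than means. PDIA5, PDIA6, TXNDC11 and CRELD1 had log2 fold changes from −0.26 (PDIA5) to −0.01 (CRELD1).

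TXNDC5, a thioredoxin-domain isomerase on chromosome 6 (7881517 to 7910814, reverse strand), had 10.55 and 12.7 CPM in WT and 21.3, 15.4 and 17 CPM in the variant libraries. All 3 variant libraries were higher. Its log2 fold change was 0.625 (SE 0.23) and its adjusted p in edgeR 0.616. The level is uncertain, because 89.5% of the 50-base stretches of its transcript, the read length, also lie in transcripts of the readthrough gene BLOC1S5-TXNDC5, and how reads common to both were counted is not given in the sources used here. Chromosome 6 as a whole had a median log2 fold change of 0.13. CRELD2, a small ER protein with disulfide isomerase activity, had 53.3 and 83.9 CPM in WT and 107, 62.9 and 104 CPM in the variant libraries. Variant 2 lay between the WT libraries, and the log2 fold change of 0.41 (95% interval −0.19 to 1.01) had an adjusted p of 0.724 in edgeR.

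Among the chaperones, the most abundant ones overlapped between the groups. HSPA5 encodes BiP, the Hsp70 of the ER lumen and the classical marker of the response. It stood at 342 and 460.4 CPM in WT and at 439, 377 and 546 CPM in the variant libraries. Variant 3 was the highest library and WT 1 the lowest, and the log2 fold change was 0.18 (SE 0.19, 95% interval −0.25 to 0.61, adjusted p 0.830 in edgeR). It lies on chromosome 9, whose genes had a median log2 fold change of 0.36 in these libraries. HSP90B1, the ER Hsp90 known as GRP94, had 772 and 869 CPM in WT and 692, 573 and 818 CPM in the variant libraries. Variant 3 lay between the WT libraries, and the log2 fold change was −0.24 (95% interval −0.61 to 0.13).

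The lectin chaperones hold glycoproteins in the folding cycle. CALR, encoding soluble calreticulin, had 698 and 923 CPM in WT and 908, 598 and 968 CPM in the variant libraries. Its log2 fold change was 0.02 (95% interval −0.45 to 0.50). CANX, encoding membrane-bound calnexin, had 580.5 and 899 CPM in WT and 830.4, 726 and 819 CPM in the variant libraries. Its log2 fold change was 0.10 (95% interval −0.32 to 0.51). For both genes the distance between WT 1 and WT 2, again single libraries set against means, was larger than that between the group means. Per kilobase of transcript, CALR was the highest of the 43 genes at 430.4 CPM per kb over the 5 libraries, followed by P4HB at 282 and SSR4 at 282.

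The chaperone helpers differed among themselves. HYOU1, a nucleotide exchange factor of BiP, had 164.5 and 194 CPM in WT and 224, 146 and 198.5 CPM in the variant libraries. SDF2L1, a partner of ER DnaJ proteins, had 46.05 and 63.8 CPM in WT and 68.5, 48.0 and 61.4 CPM in the variant libraries. Both genes overlapped between the groups, with log2 fold changes of 0.08 for HYOU1 and 0.11 for SDF2L1. MANF, a secreted ER stress protein that binds BiP, had 62.4 and 69.4 CPM in WT and 59.7, 45.1 and 60.4 CPM in the variant libraries. All 3 variant libraries were lower, yet the log2 fold change was −0.26 (SE 0.18, adjusted p 0.735 in edgeR). SIL1, DNAJB11 and DNAJC10 had log2 fold changes of 0.08, −0.01 and −0.17.

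DNAJB9, the J-protein ERdj4 that keeps IRE1 bound to BiP, had the lowest log2 fold change of the 10 chaperone genes, and its groups did not overlap. It lies on chromosome 7, 108569568 to 108574850, forward strand. It had 23.5 and 19.8 CPM in WT and 16.1, 12.7 and 16.2 CPM in the variant libraries, from 222 to 403 counts per library. All 3 variant libraries were lower than both WT libraries. The log2 fold change was −0.53 (SE 0.21, 95% interval −0.99 to −0.06, adjusted p 0.627 in edgeR). DNAJC3, the J-protein p58IPK, had 37.9 and 37.8 CPM in WT and 30.8, 28.6 and 30.3 CPM in the variant libraries. Its WT libraries were nearly equal and above all 3 variant libraries, with a log2 fold change of −0.34 (SE 0.17, adjusted p 0.659 in edgeR).

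The sensors themselves varied little. ERN1, encoding IRE1, had 22.7 and 20.5 CPM in WT and 22.5, 22.7 and 18.6 CPM in the variant libraries. EIF2AK3, encoding PERK, had 22.3 and 22.1 CPM in WT and 24.4, 21.6 and 19.03 CPM in the variant libraries. ATF6 had 55.4 and 64.8 CPM in WT and 62.2, 50.3 and 62.4 CPM in the variant libraries. All 3 overlapped between the groups, and their log2 fold changes were −0.02 (95% interval −0.45 to 0.41), −0.04 (−0.47 to 0.40) and −0.04 (−0.43 to 0.35). The highest library was 1.22 times the lowest for ERN1, 1.28 times for EIF2AK3 and 1.29 times for ATF6, where the median of the 43 genes was 1.53 times. ATF6B, a paralogue of ATF6, had a log2 fold change of 0.25 and WFS1, an ER membrane protein that restrains ATF6 signalling, had 0.28, with adjusted p-values of 0.724 and 0.714 in edgeR.

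XBP1, the factor made active when IRE1 splices its mRNA, was among the most variable. It had 94.9 and 145 CPM in WT and 83.5, 68.6 and 124.5 CPM in the variant libraries. WT 2 and variant 3 were high and the other 3 libraries low, so the groups overlapped. The log2 fold change was −0.38 (SE 0.26, 95% interval −0.97 to 0.21, adjusted p 0.735 in edgeR). Counts per gene do not separate spliced from unspliced XBP1, so IRE1 activity was not measured.

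In the translocation machinery the subunits of the SEC61 channel had unlike values. SEC61A1, the channel-forming subunit, had 247.5 and 309.6 CPM in WT and 275, 271.5 and 281 CPM in the variant libraries (log2 fold change −0.01, 95% interval −0.34 to 0.31). SEC61G, the small gamma subunit (chromosome 7, 54752250 to 54759974, reverse strand), had 169.6 and 87.3 CPM in WT and 66.7, 77.3 and 80.4 CPM in the variant libraries. WT 1 was far above all the other libraries. The log2 fold change was −0.78 (SE 0.25, adjusted p 0.616 in edgeR), and without WT 1 it was −0.22. SEC61B, the beta subunit, had 94.2 and 103 CPM in WT and 73.7, 155 and 129 CPM in the variant libraries. The order of its variant libraries matched that of chromosome 9, on which it lies, where the median deviation from the mean of the 5 libraries was −0.06, 0.28 and 0.22 on the log2 scale in variant 1, 2 and 3. The part of the chromosome in that order was not tested.

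The SSR genes encode the translocon-associated protein complex, which helps signal sequences enter the channel. SSR3 (chromosome 3, 156540140 to 156555184, reverse strand) had 89.5 and 79.1 CPM in WT and 72.1, 55.8 and 56.7 CPM in the variant libraries. Every variant library was below both WT libraries, with a log2 fold change of −0.45 (SE 0.17, 95% interval −0.85 to −0.06, adjusted p 0.616 in edgeR). SSR1, SSR2 and SSR4 had log2 fold changes of −0.06, −0.12 and 0.07, and their groups overlapped.

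Of the 8 degradation genes, HERPUD1 was the 1 with an unadjusted p under 0.05. It encodes a membrane scaffold of the HRD1 ubiquitin ligase and lies on chromosome 16, 56932048 to 56944863, forward strand. It had 52.6 and 74.6 CPM in WT and 35.95, 40.2 and 55.6 CPM in the variant libraries. Variant 3 was above WT 1, so the groups overlapped. The log2 fold change was −0.53 (SE 0.23, 95% interval −1.05 to −0.02, adjusted p 0.643 in edgeR), and without WT 2 it was −0.26. SYVN1, encoding the HRD1 ligase, had 51.0 and 67.9 CPM in WT and 60.05, 64.1 and 66.9 CPM in the variant libraries, with a log2 fold change of 0.10 (95% interval −0.30 to 0.50).

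SEL1L, the adaptor of HRD1, varied most among the variant libraries. It had 60.9 and 60.4 CPM in WT and 114, 79.5 and 52.3 CPM in the variant libraries. Variant 1 was the highest and variant 3 the lowest of the 5 libraries, and the log2 fold change was 0.43 (SE 0.28, adjusted p 0.722 in edgeR). Without variant 1 it was 0.12. SEL1L lies on chromosome 14, whose genes had median deviations of 0.30, 0.28 and −0.25 (log2) in variant 1, 2 and 3 and a median log2 fold change of 0.31. EDEM1, EDEM2, EDEM3, DERL1 and DERL2, which sort or carry misfolded proteins, had log2 fold changes from −0.32 (DERL2) to 0.26 (EDEM2). EDEM2 was highest in variant 1 at 25.1 CPM, and its chromosome 20 had a median deviation of 0.39 there.

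**Figure D3:**
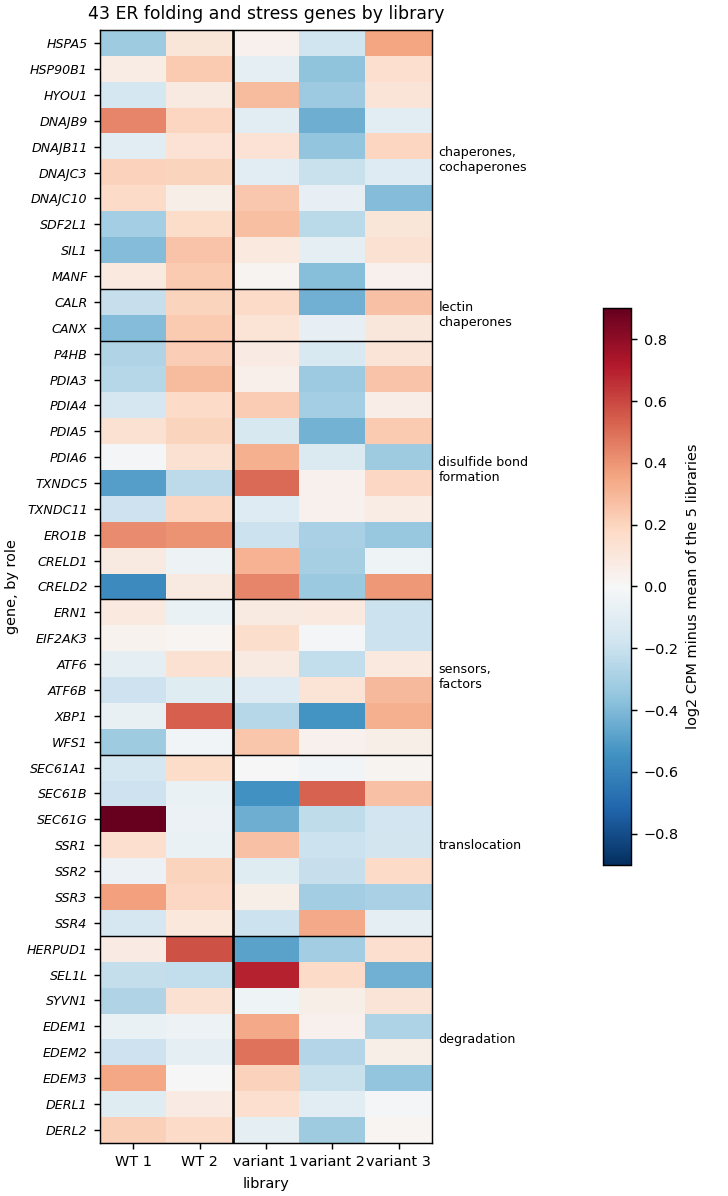
Log2 CPM of the 43 genes in each library minus the mean of the 5 libraries, grouped by role. The black line divides WT from variant libraries, red is above and blue below the mean. Many chaperone rows are blue in WT 1 and variant 2, and ERN1 and EIF2AK3 are pale throughout.

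Libraries of 1 group often differed by more than the group means did. WT 2 differed from WT 1 by more, on the log2 scale, than the variant differed from WT at 26 of 43 genes (60.5%), near the 59.1% of all tested genes. Single libraries vary more than group means, so a large share is likely even without any group difference. The share therefore does not measure the groups. The sum over the 43 genes was 6327 and 7743 CPM in WT and 7259, 6068 and 7404 CPM in the variant libraries. WT 1 and variant 2 were thus low and WT 2, variant 3 and variant 1 high. This order was noticed after the values were seen. WT 1 and variant 2 were the lowest pair of the 5 libraries at 15 of 43 genes (34.9%) and at 10.2% of all tested genes. The pair was picked from the sum of these genes, so part of that excess is built in. Disulfide bond genes ran from 1485 CPM in variant 2 to 1969 CPM in WT 2 in sum, and translocation genes only from 957 to 1089 CPM.

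Genes with an ERSE or ERSE-II match had the same order of libraries. These 10 genes are among the 43 that were summed, so part of this likeness is built in. Their median deviation from the mean of the 5 libraries was −0.18 and 0.22 (log2) in WT 1 and WT 2 and 0.08, −0.32 and 0.15 in variant 1, 2 and 3. The 33 other members had −0.08 and 0.13 in WT 1 and WT 2 and 0.08, −0.14 and 0.02 in variant 1, 2 and 3. Of these, PDIA3 and DERL1 had no promoter window to search. The difference between these sets was not tested. Variant 2 was the lowest variant library at 8 of the 10 genes with a match, at 28 of all 43 and at 29.8% of all tested genes. WT 2 was above WT 1 at 9 of the 10, with ERO1B the exception, at 30 of 43 and at 47.2% of all genes.

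**Figure D4:**
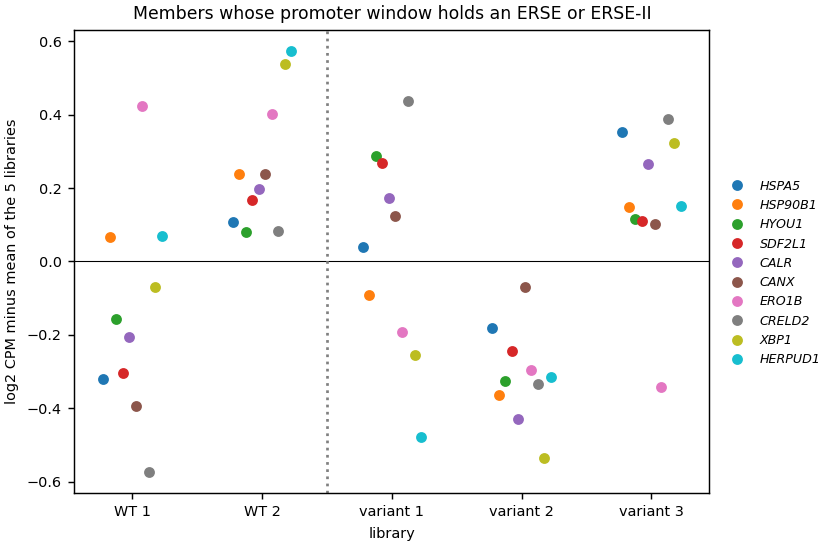
Log2 CPM minus the mean of the 5 libraries for the 10 genes whose promoter window holds an ERSE or ERSE-II, 1 point per gene and library. The points lie below 0 for all 10 genes in variant 2 and above 0 for all 10 in WT 2, and ERO1B is high in both WT libraries and low in all 3 variant libraries.

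Other measures moved with this order. Chromosome 22, which holds XBP1, CRELD2 and SDF2L1, had median deviations of −0.28 and 0.18 in WT 1 and WT 2 and of 0.11, −0.23 and 0.21 in variant 1, 2 and 3. Outside chromosome 22, WT 1 and variant 2 were the lowest pair at 13 of 40 members (32.5%) and at 9.11% of genes. These members are among those whose sum picked the pair, so this count cannot test the part of the chromosome. The 5 HEK293 markers summed to 700.1 and 940 CPM in WT and to 911, 777 and 1132 CPM in the variant libraries. The sum was also lowest in WT 1 and variant 2. VIM and KRT8 had this lowest pair, and KRT18, PAX2 and LIN28B did not. LIN28B was highest in WT 1, at 79.5 CPM. The part of these measures in the order was not tested. With libraries corrected for GC content and length of the transcript, the lowest pair was WT 1 and variant 2 at 15 of 43 genes, against 10.7% of all genes. The pair was again the one picked from these genes, so the part of GC content was not tested either.

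GC content moved with the difference between groups. The 5 lower genes with an unadjusted p under 0.05 had transcripts of 37.0% to 47.9% GC, where the median of 10896 well expressed genes was 48.8%. Across the 43 genes, which share their libraries and are not replicates, GC content and log2 fold change had a Spearman correlation of 0.563. Across the 10896 genes it was 0.409. With the correction described next, it was 0.41 across the 43 genes and 0.00655 across the 10896. With each library corrected for transcript GC content and length, TXNDC5, ERO1B, SSR3 and HERPUD1 still had an unadjusted p under 0.05. That was 1 higher gene (3.81% of all genes) and 3 lower genes (2.5% of all genes). ERO1B then had a log2 fold change of −0.50 (SE 0.14), SSR3 −0.33, HERPUD1 −0.52 and TXNDC5 0.58. DNAJB9 and SEC61G were no longer under that p, at −0.36 each.

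**Figure D5:**
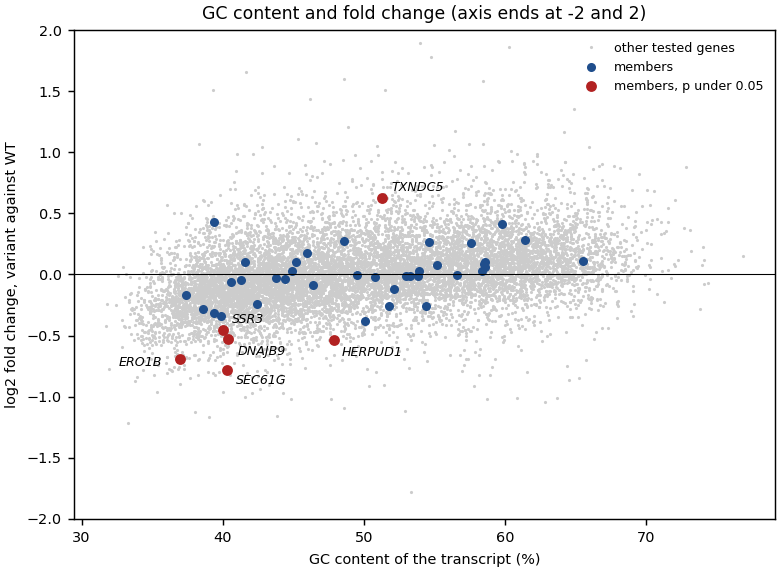
GC content of the transcript (%) against the log2 fold change, variant against WT, for 10896 genes with a mean log2 CPM above 3 (grey) and the 43 members (blue, or red with an unadjusted p under 0.05). ERO1B, at 37.0% GC, lies at the low-GC end, where most grey points also lie below 0. The axis ends at a log2 fold change of 2 in each direction, so 6 grey points fall outside it.

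Other genes of the same pathways were read from a list of 117, of which 113 were tested. At an unadjusted p under 0.05 there were 4 higher (4.11% of all tested genes were called so) and 6 lower (3.51% of all), and the median log2 fold change was −0.04. The groups did not overlap at 8 higher genes of the 113 (11.8% of all tested genes) and at 18 lower ones (13% of all), so these counts lay near the background. Of the 18 other translocation genes, 4 were lower (3.51% of all tested genes) and 1 was higher (4.11% of all), with a median of −0.17. The lower ones were SRP9 and SRP19, parts of the signal recognition particle, SPCS3, a subunit of the signal peptidase, and SEC62, a partner of the SEC61 channel. SPCS3 had 81.2 and 72.8 CPM in WT and 58.8, 48.05 and 59.1 CPM in the variant libraries (log2 fold change −0.48, SE 0.17). SRP19 had 33.2 and 31.1 CPM in WT and 20.5, 22.3 and 24.7 CPM in the variant libraries (log2 fold change −0.51, SE 0.18). In both the groups were apart. With libraries corrected for GC content and length, SPCS3 was at −0.24 and no longer under that p, and SRP19 was at −0.38 and still under it.

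SRP9 had a log2 fold change of −0.49 and SEC62 of −0.42, the latter −0.26 with the correction. SRP9 was highest in WT 1, at 311 CPM, and had a log2 fold change of −0.15 without that library and of −0.08 with the correction for GC content and length. TRAM2, a translocation-associated membrane protein, was the higher gene, with 70.9 and 72.7 CPM in WT and 94.5, 94.6 and 106 CPM in the variant libraries. It lies on chromosome 6, where the median log2 fold change was 0.13. The oligosaccharyltransferase subunit OSTC was at −0.64 (SE 0.21), again with WT 1 highest at 80.4 CPM, at −0.32 without WT 1 and at −0.35 with that correction. Adjusted p-values of these genes in edgeR were 0.616, and 0.649 for SEC62.

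Among 34 other folding genes, 2 were higher (4.11% of all tested genes) and 0 lower (3.51% of all) at an unadjusted p under 0.05 in edgeR, near the background. CNPY3, a cochaperone for Toll-like receptors, had 50.9 and 56.5 CPM in WT and 81.03, 72.7 and 83.4 CPM in the variant libraries (log2 fold change 0.56, SE 0.16, adjusted p 0.616). All 3 variant libraries were higher. CNPY3 lies on chromosome 6, whose genes had a median log2 fold change of 0.13. QSOX2, a sulfhydryl oxidase on chromosome 9, had a log2 fold change of 0.43 (SE 0.18), near the chromosome's median of 0.36. BAG6, which handles exposed membrane segments in the cytosol and is also on chromosome 6, had 0.31 (SE 0.13). The part of the chromosomes in these values was not tested. Of the 10 genes of the list under that p, the correction kept 3 (CNPY3, SRP19 and CREB3L1) and lost 7 (SRP9, SPCS3, SEC62, OSTC, TRAM2, QSOX2 and BAG6). TRAM2 was then at 0.33, QSOX2 at 0.30 and BAG6 at 0.16.

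ATF4 and DDIT3 carry the PERK arm, and both overlapped between the groups. ATF4 had 350.0 and 484 CPM in WT and 418, 348 and 541 CPM in the variant libraries, with a log2 fold change of 0.06 (95% interval −0.40 to 0.53). DDIT3, the stress factor CHOP, had 20.75 and 28.1 CPM in WT and 13.8, 16.6 and 30.7 CPM in the variant libraries, with a log2 fold change of −0.26 (SE 0.32, adjusted p 0.858 in edgeR). Both were highest in variant 3. ATF4 lies on chromosome 22, with median deviations of −0.28 and 0.18 in WT 1 and WT 2 and 0.11, −0.23 and 0.21 in variant 1, 2 and 3. The part of the chromosome in the ATF4 levels was not tested. Counts per gene do not show translation, so PERK activity was not measured. CREB3L1, a membrane-bound factor related to ATF6, was the 1 gene of 24 other signalling genes with an unadjusted p under 0.05. It had 3.26 and 2.45 CPM in WT and 0.462, 0.574 and 1.92 CPM in the variant libraries, a log2 fold change of −1.53 (SE 0.54) that rests on 8, 10 and 34 counts in the variant libraries. It was −1.19 without variant 1, −1.25 without variant 2 and −2.45 without variant 3.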

How the data were processed

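The authors deposited raw counts of reads per gene for 5 libraries of HEK293. The submitters' processing notes name HISAT2, SAMtools, HTSeq and hg38, with no versions. Per the labels, the libraries were strand-specific mRNA with single-end reads of 50 bases. The annotation, the strand setting of the counting and any filter are not given in the sources used here. No gene in the table has fewer than 3 counts in a library, so genes below that are not analysed here.

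Columns were matched to samples by library name, and none was left over. Genes were named from a gene name table (16627 identifiers) and GENCODE release 29 (46 more). Genes kept by filterByExpr (16310, 97.8%) were scaled by TMM (factors 0.983 to 1.01) and tested with the quasi-likelihood test of edgeR 4.0.16 in R 4.3.3, all 5 libraries, no covariate. P-values are two-sided, with Benjamini-Hochberg adjustment over all tested genes, and SE and intervals come from the same fits. DESeq2 1.42.0 and limma 3.58.1 were alternatives. On simulated counts for 16310 genes of this comparison, edgeR recovered 12.5% of genes changed 1.5-fold, 56% changed 2-fold and 95.9% changed 4-fold. Of its 135 calls there, 6 were false. Genes were simulated independently, with the spread set by expression level alone and without differences by GC content or chromosome. These rates may therefore not hold for the real libraries.

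Transcript length and GC content are those of 1 principal GENCODE transcript per gene. The correction for both fits splines with 5 degrees of freedom in each library. Deviations between libraries add 0.1 CPM before the log2, and medians by chromosome use genes with a mean log2 CPM above 3. Of the 43 members, 6 share over 5% of their 50-base stretches with other genes (TXNDC5 89.5%, PDIA3 18.4%, DNAJB11 17.2%, ATF6B 10.2%, HSPA5 9.54%, HSP90B1 8.12%), so their levels are less certain. ATF4 shares 22.9%, SRP19 15.8%, SRP9 14.8%, OSTC 7.00% and DDIT3 6.53%.

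The members and lists were chosen with earlier results of these data known. Genes named with every library are 19 main chaperones, targets and sensors, members with an unadjusted p under 0.05, the 3 largest rises and falls, up to 10 genes of the wider list with an unadjusted p under 0.05 and separate groups, ATF4, DDIT3, ERO1A and SIRT3. Other genes were named after their values were seen. Alternatives were other scalings, filters and tests, the replicate number as a block, the GC and length correction, and leaving out each library.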

Additional observations from a re-analysis of the deposited data

How the results depend on the processing

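Of 112 values of the counts and the median under 14 alternatives, 87 kept within 1.5 times or within the spread between libraries. Another scaling (RLE, upper quartile), filter or limma-voom changed none of these counts by over 1.5 times and no direction of a named gene. DESeq2's Wald test gave 1 member, ERO1B, at an adjusted p under 0.05 (0.217% of genes with an adjusted p), where edgeR gave 0. The adjusted p of ERO1B ran from 0.0355 to 0.998 over the alternatives. The cause was not tested. With the GC and length correction 3 members were lower at an unadjusted p under 0.05 (2.5% of all genes). Then 1 member was higher in all variant libraries than in both WT libraries (11.2% of all genes). Of the 113 genes of the wider list, 2 were higher at that p (3.81% of all genes).

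Nothing in the labels ties libraries with the same replicate number. Same-numbered libraries had correlations of deviations of 0.120 and −0.113. With 2 WT libraries the deviations of WT 1 and WT 2 mirror each other. These correlations therefore cannot show whether the numbers pair the samples. With the replicate block 2 members were higher at an unadjusted p under 0.05 (TXNDC5 and SEL1L), where 5.45% of all genes were, against 4.11% without the block. With the replicate block and the GC and length correction 2 were higher (5.2% of all genes) and 3 lower (2.89%). Then 1 member was higher in all variant libraries (11.2%). Of the 113 genes of the wider list, 7 were higher at that p, where 5.2% of all genes were.

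Leaving out single libraries moved the number of members at an unadjusted p under 0.05 from 0 (without WT 1, where 2.15% of all genes were called so) to 3 (without WT 2, 3.55%) for higher genes. For lower genes it ran from 2 (without WT 1, 1.19%, or without variant 2, 2.12%) to 6 (without variant 3, 4.41%). Members with separate groups ran from 2 to 13 higher and from 7 to 19 lower. The 13 were found without WT 2, where 27.1% of all genes were so, and the 19 without WT 1, where 24.4% were. The tests with 1 WT library left assume that it varies like the others. Of the 113 genes of the wider list, at most 8 were lower at that p (without variant 3, where 4.41% of all genes were). The lowest and highest counts of higher genes came with 1 WT library left and are not given. The median of the members ran from −0.15 (without WT 1) to 0.11 (without WT 2).

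Of 531 values of 38 named genes, 41 changed sign, and 23 genes never did. The sign changes were at genes with small log2 fold changes. Leaving out libraries gave −0.021 to 0.41 for HSPA5, −0.16 to 0.24 for CALR, −0.18 to 0.45 for CANX, −0.20 to 0.29 for P4HB, −0.27 to 0.27 for PDIA3, −0.16 to 0.16 for PDIA4, −0.057 to 0.24 for HYOU1, −0.11 to 0.37 for SDF2L1, −0.15 to 0.073 for ATF6, −0.095 to 0.066 for ERN1, −0.13 to 0.048 for EIF2AK3, −0.17 to 0.16 for SEC61A1, −0.092 to 0.32 for SYVN1, −0.15 to 0.32 for ATF4 and −0.034 to 0.31 for ERO1A. With the GC and length correction P4HB was at −0.044, PDIA3 at 0.012 and HYOU1 at −0.062. With the replicate block CALR was at −0.12, P4HB at −0.0057, ERN1 at 0.067, EIF2AK3 at 0.046 and ATF4 at −0.11. With the replicate block and the correction CALR was at −0.11, P4HB at −0.054, HYOU1 at −0.14, EIF2AK3 at 0.0016, SYVN1 at −0.00070 and ATF4 at −0.11. Each member had 58 counts or more per library, and the groups hold 2 and 3 libraries.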
